A study of Capra hircus with 14 samples.

Results

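Goat cells that had spent 8 days in a medium called R induction medium were compared with cells that had spent 1 day in it, to ask which genes differed between the end and the start of the induction rather than between induced cells and fibroblasts. The comparison rests on 4 of the 14 libraries of the series, namely both libraries titled day 8 and both titled day 1, and all 14 entered the fit that estimated the spread. The day 8 and day 1 cells (Capra hircus, genotype WT, labelled as reprogramming CiMEC cells and as induced mammary epithelial cells) had started as GEF fibroblasts. They had been seeded on Matrigel-coated plastic and moved to R induction medium on the next day, and the medium was renewed every 2 days. The day 0 libraries (GEF, WT, DMEM with 10% fetal bovine serum) serve here as a reference level, given last beside some values. Per the series title the protocol uses small molecules, but what the medium contains is not stated in any source used here. Medium is shared by days 8 and 1, so it does not differ between them by label, while days in culture, cell density and time since the last renewal may differ and cannot be told apart from the day of induction. No library of a later day without the medium was analysed here.

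The mammary gland is lined by luminal cells, which make milk and carry keratins 7, 8, 18 and 19, and by an outer basal layer, which contracts and carries keratins 5 and 14 with the transcription factor p63. Epidermis is built from basal cells with the same keratins 5 and 14, and its upper layers switch on keratins 1 and 10 and the proteins of the cornified envelope. Fibroblasts are known by fibrillar collagens, vimentin and receptors such as PDGFRA, and the passage of fibroblasts to an epithelial state is commonly tracked by loss of these and gain of cadherin 1 and desmosomes.

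Totals were 21585452 and 23883174 estimated counts in the day 8 libraries, against 21035114 and 21982987 in the day 1 libraries, and 20515109 to 24745978 over all 14. A count of 3 in a library, used as the floor of detection, is worth 0.126 to 0.139 CPM (estimated counts relative to the TMM-scaled library total) at day 8 and 0.137 to 0.143 CPM at day 1. Across genes, the Spearman correlation was 0.913 to 0.914 between a day 8 and a day 1 library, 0.997 within the day 8 pair and 0.997 within the day 1 pair. Ribosomal protein genes took 5.38% and 5.49% of the counts at day 8, against 3.62% and 3.69% at day 1. The labels do not say whether the 2 libraries of a day came from separate cultures, so p-values measure the spread between libraries, which may be technical. In bulk RNA, fewer cells of a type and less RNA per cell cannot be told apart.

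Of 15712 genes tested with edgeR's quasi-likelihood test, 10491 (66.8%) differed between day 8 and day 1 at an adjusted p under 0.05, the threshold for every call below. At day 8, 4998 genes (31.8%) were higher and 5493 (35.0%) were lower, and 5221 were not called. Since so many small differences passed, those of at least 2-fold are given too: 1948 genes (12.4%) were higher and 2084 (13.3%) lower by that much, and 1024 and 741 were higher and lower by at least 4-fold. Over all genes tested the median log2 fold change was -0.04 and the interquartile range was -0.59 to 0.45. The day 8 pair lay wholly above or below the day 1 pair for 13262 genes (84.4%). Each list of genes below is to be read against these shares.

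**Figure D1:**
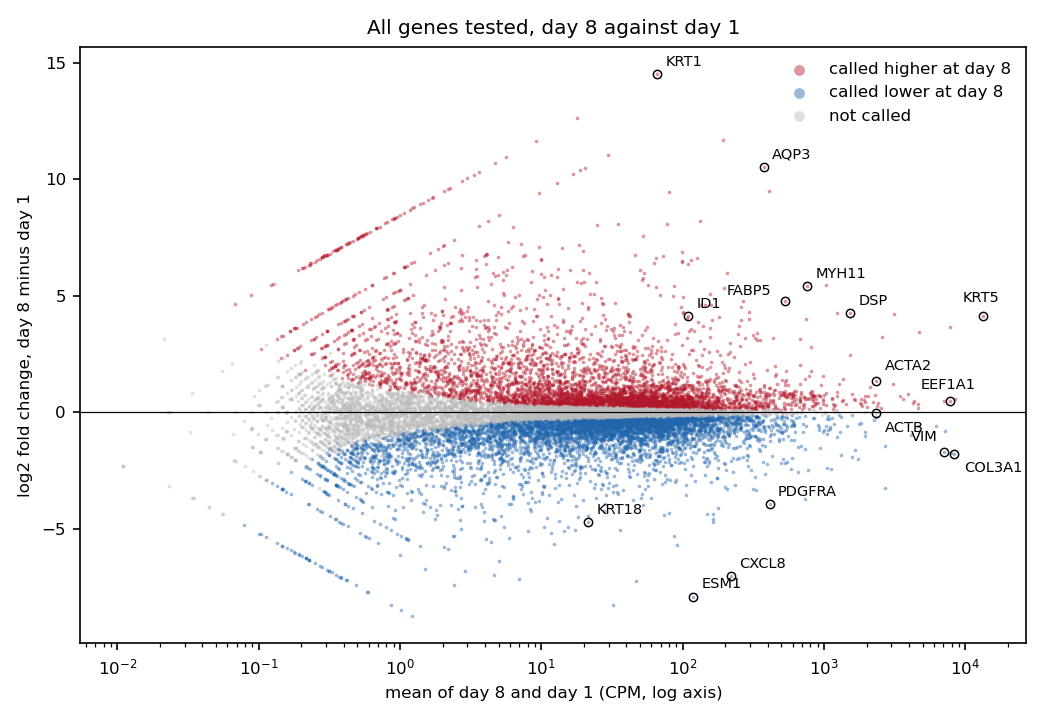
Log2 fold change of day 8 over day 1 (vertical axis) against the mean CPM of both days (horizontal log axis) for each of the 15712 genes tested, with genes called higher at day 8, called lower and not called in separate colours. KRT5, with a log2 fold change of 4.12, and COL3A1, with -1.77, lie at the high-CPM end of the plot, and AQP3 and CXCL8 lie far above and below 0.

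Basal keratins gave the greatest gains in CPM. KRT5, the type II keratin of basal cells, had 25070 and 25660 CPM at day 8, against 1457 and 1464 CPM at day 1 and a mean of 3810 CPM at day 0, a log2 fold change of 4.12 ± 0.051 (SE, n = 2 libraries a day, adjusted p = 2.88e-26 with edgeR). Both day 8 libraries lay far above both day 1 libraries, and day 1 was below day 0. KRT14, its type I partner, had 14380 and 14660 CPM at day 8 and 1126 and 1140 CPM at day 1, with 4388 CPM at day 0 (log2 fold change 3.68 ± 0.053). KRT6A, a keratin of activated and wound-edge epithelium, had 5919 and 5895 CPM at day 8 and 323 and 320 CPM at day 1. The keratin 17 gene had 8589 and 8727 CPM at day 8 and 806 and 787 CPM at day 1. Reads of KRT5 and KRT6A, and of KRT14 and keratin 17, may have been divided between near-identical sequences, so their levels are uncertain, while all 4 moved the same way. Epithelial genes were already present at day 0, where KRT8 had a mean of 1910 CPM, DSP 304 CPM and CDH1 110 CPM. What part any epithelial cells already in the day 0 culture had in the values here and below was not tested.

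TP63, which encodes p63, the master transcription factor of stratified epithelia, had 386 and 378 CPM at day 8, against 48.3 and 49.6 CPM at day 1, with no overlap (log2 fold change 2.96 ± 0.057, edgeR adjusted p = 4.98e-23). At day 0 it had 52.9 CPM. The keratin 15 gene, a marker of basal and follicle stem cells, had 1991 and 2016 CPM at day 8, against 46.1 and 44.2 CPM at day 1 and 49.4 CPM at day 0, so that day 8 alone of these 3 was high. COL17A1, the hemidesmosome collagen, had 2924 and 2866 CPM at day 8 and 1365 and 1365 CPM at day 1. Of 16 tested members of the basal epithelium list, 14 were higher, 0 were lower and 2 were not called (median log2 fold change 2.00). The uncalled ones were ITGA3 and LAMA3, an integrin and a laminin chain of the basement membrane zone, with log2 fold changes of -0.04 and 0.05. CDH3, DST, ITGA6 and EGFR, a cadherin, a linker, an integrin of the hemidesmosome and the EGF receptor, had log2 fold changes of 2.72, 2.46, 1.55 and 1.31. Summed over the list, CPM came to 66490 and 67410 at day 8, against 8332 and 8305 at day 1.

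Genes of the upper epidermal layers were higher too, and many of them were near or at 0 at day 1. KRT1, the first keratin of suprabasal epidermis, had 134 and 131 CPM at day 8 (5862 counts) and 0 counts in both day 1 libraries, which is at least 1850-fold higher against the floor of 3 counts over the pair. KRT10, its partner, had 179 and 160 CPM at day 8, against 3.80 and 4.11 CPM at day 1 and 4.89 CPM at day 0 (log2 fold change 5.42 ± 0.11). IVL, which encodes involucrin of the cornified envelope, had 197 and 196 CPM at day 8, against 1.67 and 1.64 CPM at day 1 and 8.14 CPM at day 0 (log2 fold change 6.89 ± 0.10, edgeR adjusted p = 4.91e-25). DSG1, the desmoglein of upper layers, had 259 and 241 CPM at day 8 and 2.64 and 2.48 CPM at day 1. In all of these the day 8 pair stood apart from the day 1 pair and from day 0.

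All 29 tested members of the stratified skin list were higher, 26 of them by at least 2-fold, and the median log2 fold change was 5.39. With the 6 members that had 0 counts at day 1 placed at their lower bounds, the median was 5.09. Members with 0 counts at day 1 passed the filter on low counts through the later days, so they had to come out higher, and the count of 29 is a description. Against the floor, KRT2 was at least 155-fold higher, CASP14, a protease of cornification, at least 133-fold, KRT3 and KRT4 at least 61.2-fold and 56.8-fold, and TGM5, a transglutaminase, at least 18.6-fold. SBSN, suprabasin, had 193 and 197 CPM at day 8 and 1.94 and 2.39 CPM at day 1. The smallest rises of the list belonged to ELOVL4, LY6D and TGM1, with log2 fold changes of 0.43, 0.49 and 0.53. LOR, loricrin, a late envelope protein, had few counts, with CPM of 2.09 and 2.67 at day 8 and 0.694 and 0.619 at day 1. The summed level of the list was 1570 and 1528 CPM at day 8 and 94.7 and 95.9 CPM at day 1. The labels name the day 8 cells induced mammary epithelial cells, and the part of an epidermal programme in the basal values above was not tested.

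Genes of desmosomes, the junctions that hold keratin filaments at the cell border, were higher. DSP, desmoplakin, had 2930 and 2881 CPM at day 8, against 153 and 152 CPM at day 1 and 304 CPM at day 0 (log2 fold change 4.26 ± 0.059, edgeR adjusted p = 1.6e-25). DSG3, the desmoglein of lower layers, had 791 and 778 CPM at day 8 and 83.7 and 86.8 CPM at day 1. Neither gene overlapped between days. Of 10 tested desmosome genes, 9 were higher and 1, DSG2, was not called, with 15.7 and 14.8 CPM at day 8 and 14.4 and 15.4 CPM at day 1. PKP1, JUP and PERP, a plakophilin, plakoglobin and a p63 target of the desmosome, had log2 fold changes of 4.32, 3.19 and 3.13.

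Adherens and tight junctions moved less and not all in 1 direction. CDH1, E-cadherin, had 219 and 212 CPM at day 8, against 56.6 and 56.9 CPM at day 1 and 110 CPM at day 0 (log2 fold change 1.93 ± 0.062). EPCAM, an epithelial adhesion molecule, had 88.4 and 95.2 CPM at day 8, against 43.9 and 44.8 CPM at day 1, and at day 0 stood at 81.4 CPM. Its day 8 level was thus close to that of day 0, while that of CDH1 was above it. Of 24 tested genes of this list, 17 were higher, 3 lower and 4 not called (median 1.00). OVOL1, a transcription factor of epithelial differentiation, had 17.1 and 17.1 CPM at day 8 and 0.833 and 0.752 CPM at day 1. The epithelial factors GRHL1 and GRHL2, the splicing factor ESRP1 and the trafficking GTPase RAB25 had log2 fold changes of 2.73, 2.16, 2.51 and 3.17. CLDN3 and CLDN1, claudins of the tight junction, and ST14, matriptase, were the 3 lower ones, at -2.47, -0.74 and -1.55.

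Luminal mammary genes split. KRT7 had 607 and 616 CPM at day 8, against 56.0 and 58.8 CPM at day 1 and 146 CPM at day 0 (log2 fold change 3.41 ± 0.063). KRT19 had 497 and 504 CPM at day 8 and 56.8 and 53.8 CPM at day 1 (log2 fold change 3.18 ± 0.056). Both were clearly above day 1. KRT8 had 170 and 170 CPM at day 8, against 544 and 535 CPM at day 1 and 1910 CPM at day 0 (log2 fold change -1.67 ± 0.048). KRT18, the partner of KRT8, had 1.43 and 1.72 CPM at day 8, against 42 and 40.4 CPM at day 1 and 158 CPM at day 0 (log2 fold change -4.70 ± 0.11, edgeR adjusted p = 5.16e-21). Simple-epithelial keratins 8 and 18 were therefore lower at day 8 than at day 1, and the day 8 pair of each lay below the day 1 pair. KRT8 did not fall steadily: its mean was 1863 CPM at day 4 and 352 CPM at day 6. Nor did KRT18, whose mean was 115 CPM at day 3, 97.1 CPM at day 4 and 9.23 CPM at day 6. KRT19 had its highest mean, 699 CPM, at day 6, above its day 8 level.

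Among luminal regulators, ELF5, the transcription factor of alveolar milk-secreting cells, had 5.08 and 5.04 CPM at day 8 and 0.278 and 0.177 CPM at day 1 (log2 fold change 4.45 ± 0.41). PRLR, the prolactin receptor, had 8.93 and 8.22 CPM at day 8 and 0.324 and 0.0442 CPM at day 1 (5.52 ± 0.37). The day 1 levels of these genes were a few counts. GATA3, a luminal transcription factor, had 12.3 and 12.4 CPM at day 8 and 1.34 and 1.55 CPM at day 1, and TFAP2C had 77.2 and 79.3 CPM at day 8 and 11 and 11 CPM at day 1. ESR1, the oestrogen receptor, had 0.190 and 0.387 CPM at day 8 and 0.833 and 1.28 CPM at day 1, which are a few counts on either day. It was called lower (edgeR adjusted p = 0.00477), but not without day 1 replicate 2 (adjusted p = 0.0667) nor without day 8 replicate 1 (adjusted p = 0.0649), and over 21 alternatives its adjusted p ran from 0.00155 to 0.0667. Of 18 tested luminal genes 10 were higher and 8 lower (median 2.00). ERBB3 and EHF were higher (2.42 and 1.95) and MUC1, STAT5B and STAT5A, a surface mucin and the effectors of prolactin, were lower (-1.70, -0.55 and -0.23). FOXA1, PGR, KIT, SPDEF and ERBB4, other luminal genes, reached at most 10, 7, 5, 4 and 1 counts in any library and were not tested.

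The defining products of milk were absent at this depth. CSN2, CSN1S1, CSN1S2 and LALBA, the beta, alpha-s1 and alpha-s2 caseins and alpha-lactalbumin, had 0 counts in each of the 14 libraries, and so did PAEP and GLYCAM1, which limits each to 0.139 and 0.126 CPM in the day 8 libraries. CSN3, kappa-casein, had 1 count at day 8, and LTF, lactoferrin, had 15 counts at day 8 and 0 at day 1, too few for the test. SPP1, osteopontin, a secreted protein of milk, bone and other tissues, was lower, with 13.6 and 14.3 CPM at day 8, against 93.3 and 90.2 CPM at day 1 and 176 CPM at day 0 (log2 fold change -2.72). It was 1 of 2 tested members of the milk protein list, and the other, LPO, was not called.

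**Figure D2:**
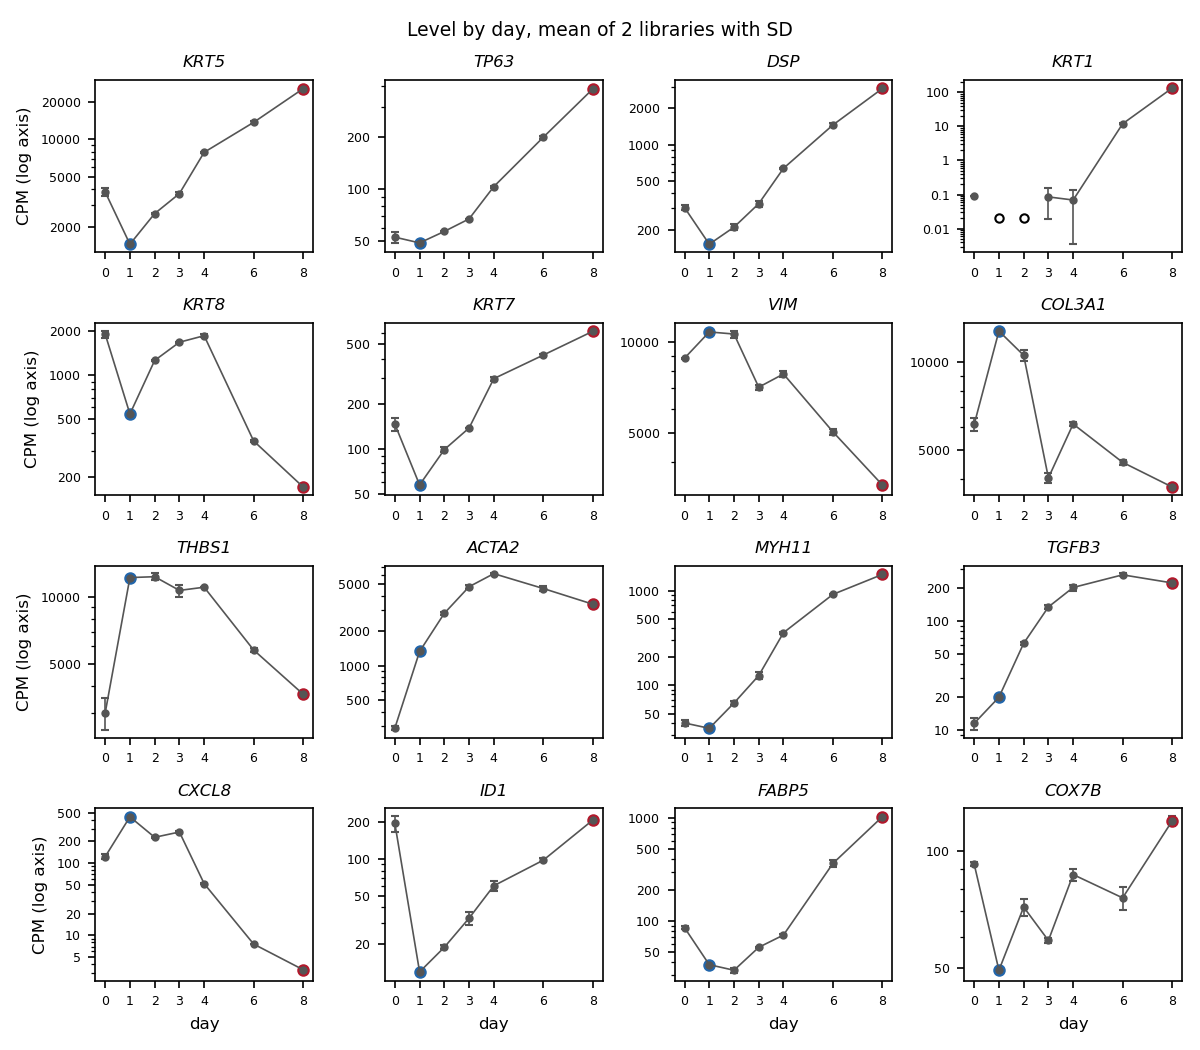
CPM by day of induction for 16 genes (log axis, mean of 2 libraries ± SD, day 8 as a red point and day 1 as a blue point, means of 0 drawn as open points at 0.02, day 1 included). KRT5 and DSP climb at each sampled day after day 1, KRT8 and ACTA2 reach their highest level of days 1 to 8 at day 4, and CXCL8 ends far below its day 1 level.

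Fibroblast genes were mostly lower at day 8. PDGFRA, the platelet-derived growth factor receptor of mesenchyme, had 48.4 and 52.4 CPM at day 8, against 783 and 765 CPM at day 1 and 258 CPM at day 0 (log2 fold change -3.94 ± 0.070, edgeR adjusted p = 1.12e-23). NT5E, the surface nucleotidase CD73, had 14.3 and 13 CPM at day 8, against 282 and 284 CPM at day 1 and 565 CPM at day 0. VIM, vimentin, had 3310 and 3387 CPM at day 8 and 10710 and 10850 CPM at day 1 (log2 fold change -1.69 ± 0.041, edgeR adjusted p = 4.42e-21). None of these overlapped between days, and VIM kept 3310 CPM or more at day 8. Of 22 tested fibroblast genes 17 were lower, 3 higher and 2 not called (median -1.64). LUM and DCN, small proteoglycans of collagen fibrils, and FBN1, a microfibril protein, had log2 fold changes of -2.38, -2.15 and -2.44, and FAP and PDGFRB -3.25 and -2.09.

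The 3 fibroblast genes that were higher were ASPN, THY1 and MFAP5. ASPN, asporin, had 77.5 and 77.7 CPM at day 8, against 3.33 and 4.87 CPM at day 1 and 1.82 CPM at day 0, and its highest mean, 153 CPM, came at day 6. THY1, the surface protein CD90, had 297 and 285 CPM at day 8 and 108 and 112 CPM at day 1. MFAP5 had a log2 fold change of 0.86. The summed level of the fibroblast list was 7002 and 7091 CPM at day 8, against 20560 and 20670 CPM at day 1.

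The matrix genes COL3A1 and THBS1 gave the greatest losses in CPM. COL3A1, collagen III, had 3746 and 3738 CPM at day 8, against 12810 and 12740 CPM at day 1 and 6129 CPM at day 0 (log2 fold change -1.77 ± 0.045). THBS1, thrombospondin 1, had 3648 and 3678 CPM at day 8, against 12320 and 12150 CPM at day 1 and 3018 CPM at day 0. For both, day 1 was above day 0 as well as above day 8. COL1A1 had 5134 and 5286 CPM at day 8 and 9034 and 9042 CPM at day 1 (log2 fold change -0.79 ± 0.052), and FN1, fibronectin, 811 and 821 CPM at day 8 and 2545 and 2471 CPM at day 1 (-1.62 ± 0.062). Of 25 tested collagens and matrix genes 21 were lower, 3 higher and 1 not called (median -1.62). The 3 higher ones were COL12A1, which lies along collagen fibrils, with 1785 and 1769 CPM at day 8 and 778 and 743 CPM at day 1, THBS2 (log2 fold change 2.00) and SPARC (0.39). COL5A3 and BGN, biglycan, were among the most reduced, at -3.28 and -2.57.

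Matrix proteases and their inhibitors were mostly lower, with 15 of 21 lower, 4 higher and 2 not called and a median of -0.89. TIMP1, a metalloprotease inhibitor, had 60.4 and 60.3 CPM at day 8, against 593 and 615 CPM at day 1 and 987 CPM at day 0. MMP2 had 1440 and 1469 CPM at day 8 and 3914 and 3912 CPM at day 1. MMP9 and ADAMTS5 had log2 fold changes of -5.01 and -2.10, while MMP15 and MMP28 were higher at 2.45 and 1.35. MMP13, a collagenase, was not called, with 1.47 and 1.51 CPM at day 8 and 1.57 and 1.42 CPM at day 1, although day 0 had 184 CPM.

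Drivers of the mesenchymal state were lower in part. Of 10 tested genes of the epithelial-mesenchymal transition (EMT) list 7 were lower, 1 higher and 2 not called (median -1.23). CDH2, N-cadherin, had 20.6 and 22.5 CPM at day 8, against 158 and 160 CPM at day 1 and 95.1 CPM at day 0 (log2 fold change -2.88). ZEB1 had 16.5 and 14.7 CPM at day 8 and 38.3 and 35.9 CPM at day 1 (-1.25 ± 0.11), and ZEB2 had 51.7 and 57.2 CPM at day 8 and 149 and 139 CPM at day 1 (-1.40). Both ZEB repressors of E-cadherin were thus lower without overlap. SNAI1 was lower (-1.97), while SNAI2, slug, which basal epithelial cells also carry, was not called, with 67.8 and 69.9 CPM at day 8 and 68.9 and 71.1 CPM at day 1 (-0.02 ± 0.064, edgeR adjusted p = 0.765), and its sign turned with RLE scaling. The 1 higher member, FOXC2 (0.69), was not called without day 8 replicate 1, leaving 0.

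Contractile genes rose, and here the smooth muscle members stood out. MYH11, smooth muscle myosin heavy chain, had 1461 and 1514 CPM at day 8, against 36 and 34.0 CPM at day 1 and 39.9 CPM at day 0 (log2 fold change 5.41 ± 0.068, edgeR adjusted p = 3.11e-26). MYLK, the kinase of the myosin light chain, had 1424 and 1382 CPM at day 8, against 85.6 and 87.1 CPM at day 1. ACTA2, smooth muscle actin, had 3343 and 3415 CPM at day 8, against 1319 and 1324 CPM at day 1 and 289 CPM at day 0 (log2 fold change 1.36 ± 0.046), but its highest mean was at day 4, with 6194 CPM. Smooth muscle and the basal, myoepithelial cells of the mammary gland carry these genes, and myofibroblasts carry ACTA2. SYNPO2 and ACTG2 had log2 fold changes of 5.78 and 3.97, CNN1 2.35, TPM1 1.22 and TAGLN 0.36 ± 0.048. Reads of ACTA2, ACTG2 and ACTC1 may have been divided between similar sequences. Of 17 tested contractile genes 13 were higher and 4 lower (median 1.03). The lower 4 were CNN2 (-0.97), CALD1 (-0.60) and the regulators MYOCD (-0.99) and SRF (-0.25).

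Transforming growth factor beta genes did not move as 1 group. Of 24 tested, 6 were higher, 12 lower and 6 not called (median -0.19). Among ligands, TGFB3 had 222 and 223 CPM at day 8, against 19.95 and 19.95 CPM at day 1 and 11.5 CPM at day 0 (log2 fold change 3.48 ± 0.070). TGFB2 had 26.1 and 28.8 CPM at day 8 and 2.13 and 2.70 CPM at day 1 (3.50 ± 0.14), whereas TGFB1 had 36.4 and 37.2 CPM at day 8 and 73.0 and 70.5 CPM at day 1 (-0.96). The ligands thus moved in opposite directions. Of the targets, IL11 had 0.570 and 0.344 CPM at day 8, against 9.58 and 10.1 CPM at day 1 and 151 CPM at day 0 (log2 fold change -4.43). CTGF was lower at -1.47, the decoy receptor BAMBI was higher at 2.90, and SMAD2, SMAD3 and SMAD4 were not called.

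Inflammatory genes were lower nearly throughout, with 19 of 22 tested lower, 1 higher and 2 not called and a median of -2.58. CXCL8, a neutrophil-attracting chemokine, had 3.13 and 3.57 CPM at day 8, against 442 and 429 CPM at day 1 and 123 CPM at day 0 (log2 fold change -7.01 ± 0.087, edgeR adjusted p = 2.88e-26). IL6 had 3.85 and 4.78 CPM at day 8, against 169 and 170 CPM at day 1 and 204 CPM at day 0 (-5.29 ± 0.10). PTGS2, the inducible prostaglandin synthase, had 7.36 and 5.94 CPM at day 8 and 144 and 138 CPM at day 1. The day 8 pairs were far below the day 1 pairs in each case, and for CXCL8 day 1 was above day 0. The chemokine CXCL6 gene had 529 and 498 CPM at day 8 and 4865 and 4862 CPM at day 1, and TNFAIP6, LIF, ICAM1 and CCL2 had log2 fold changes of -5.55, -3.56, -2.69 and -1.69. CSF2, a myeloid growth factor, had 0 counts at day 8 and 37 at day 1, at least 13-fold lower. The higher one was NFKBIA, the inhibitor of NF-kappa B, with 116 and 112 CPM at day 8 and 87.7 and 86.7 CPM at day 1.

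Interferon genes had both signs, with 10 of 22 lower, 5 higher and 7 not called and a median of -0.38. The IFIT1 gene, an antiviral effector, had 8.31 and 11.4 CPM at day 8, against 97.7 and 98.2 CPM at day 1 and 21.9 CPM at day 0. MX2, an antiviral GTPase, had the opposite sign, with 14 and 14.9 CPM at day 8 and 2.04 and 1.33 CPM at day 1. Of 3 tested leukocyte markers 2 were lower, CD14 and CD68, and 1 was not called, and without day 1 replicate 1 or day 8 replicate 2 only 1 was lower. The list summed to 10.5 and 10.1 CPM at day 8, against 53 and 51.3 CPM at day 1. CD14, the lipopolysaccharide co-receptor, had 8.26 and 8.39 CPM at day 8 and 48.6 and 48.1 CPM at day 1, while PTPRC, TYROBP and AIF1, which define leukocytes, had 0 counts in all 14 libraries. The part of other cells in the cytokine values was not tested.

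**Figure D3:**
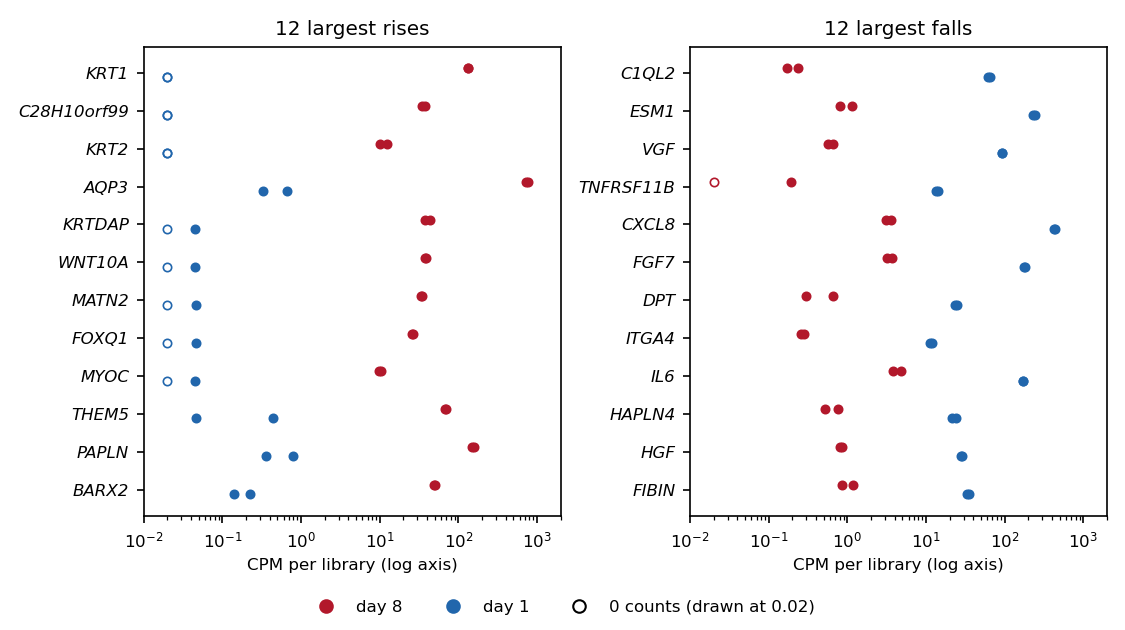
CPM in each day 8 and day 1 library (log axis, 0 counts drawn as open points at 0.02) for the 12 genes with the largest rise and the 12 with the largest fall in log2 fold change among genes with a symbol and at least 10 CPM in the higher day. Only called genes whose day 8 pair and day 1 pair were apart could be chosen, so the separation of all 24 was set by the choice. AQP3 is at 766 and 726 CPM against 0.324 and 0.664 CPM, and CXCL8 at 3.13 and 3.57 CPM against 442 and 429 CPM.

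Of the 12 largest rises, KRT1, KRT2 and KRTDAP belong to the skin list. AQP3, the glycerol and water channel of epidermis and other epithelia, had 766 and 726 CPM at day 8, against 0.324 and 0.664 CPM at day 1 and 1.03 CPM at day 0 (log2 fold change 10.53 ± 0.18, edgeR adjusted p = 4.1e-24). C28H10orf99, the goat homologue of human C10orf99, had 1589 counts at day 8 and 0 at day 1, at least 501-fold higher. KRTDAP, WNT10A, MATN2, FOXQ1 and MYOC had 1 count each over both day 1 libraries, and their ratios of counts were 1710 (95% interval 307 to 67600), 1580 (283 to 62400), 1410 (253 to 55800), 1080 (194 to 42700) and 422 (75.3 to 16700), where intervals cover counting error only. WNT10A is a ligand of skin appendages, and FOXQ1 is a forkhead transcription factor. THEM5, a thioesterase, had 68.4 and 69.5 CPM at day 8, against 0.0463 and 0.442 CPM at day 1. PAPLN, papilin of the extracellular matrix, had 157 and 151 CPM at day 8, against 0.787 and 0.354 CPM at day 1. BARX2, a homeobox factor, had 50.1 and 48.8 CPM at day 8, against 0.139 and 0.221 CPM at day 1. For these 3 the day 1 libraries held few counts.

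Among the 12 largest falls, ESM1, the proteoglycan endocan, had 1.14 and 0.818 CPM at day 8, against 229 and 240 CPM at day 1 and 362 CPM at day 0 (log2 fold change -7.91 ± 0.11). VGF, a neurosecretory peptide precursor, had 0.665 and 0.560 CPM at day 8, against 91.4 and 93.8 CPM at day 1 and 666 CPM at day 0. C1QL2 had 0.237 and 0.172 CPM at day 8 and 65.1 and 62.1 CPM at day 1. Day 8 was lowest for all 3, and day 0 was higher than day 1. TNFRSF11B, osteoprotegerin, had 0.190 and 0 CPM at day 8, against 14.2 and 13.3 CPM at day 1 and 1.07 CPM at day 0. ITGA4, an integrin chain, had 0.285 and 0.258 CPM at day 8, against 11.2 and 11.9 CPM at day 1 and 1.49 CPM at day 0. For these genes day 1 was the high one of the 3 days. FGF7, a growth factor that mesenchyme makes for epithelium, had 3.66 and 3.19 CPM at day 8, against 175 and 183 CPM at day 1. HGF, another such factor, had 0.855 and 0.818 CPM at day 8, against 28.6 and 27.9 CPM at day 1. DPT, HAPLN4 and FIBIN, with log2 fold changes of -5.66, -5.16 and -5.05, complete the 12 with CXCL8 and IL6.

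By gain in CPM rather than in ratio, KRT5, KRT14, KRT6A, IGFBP3, DSP and EEF1A1 came first among genes with a symbol of their own in the table, a limit that leaves out genes such as that of keratin 17, named here by its description. IGFBP3, a carrier of insulin-like growth factors, had 4709 and 4640 CPM at day 8, against 503 and 501 CPM at day 1 and 541 CPM at day 0 (log2 fold change 3.22 ± 0.046). EEF1A1, the translation elongation factor, had 8883 and 9045 CPM at day 8, against 6529 and 6469 CPM at day 1 and 8992 CPM at day 0, so day 8 was near day 0. Under the same limit, which leaves out the CXCL6 gene, the greatest losses were of COL3A1, THBS1, VIM, COL1A1, COL6A3 and MMP2. Among the genes of highest mean CPM that were not called were ACTB, ACTN4, FTL and ENO1, with log2 fold changes of -0.05, 0.09, -0.01 and 0.00. ACTB, cytoplasmic actin, had 2310 and 2283 CPM at day 8 and 2359 and 2391 CPM at day 1. The signs of FTL and ENO1 turned, and ACTN4 was called higher, under some of the alternatives given at the end.

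**Figure D4:**
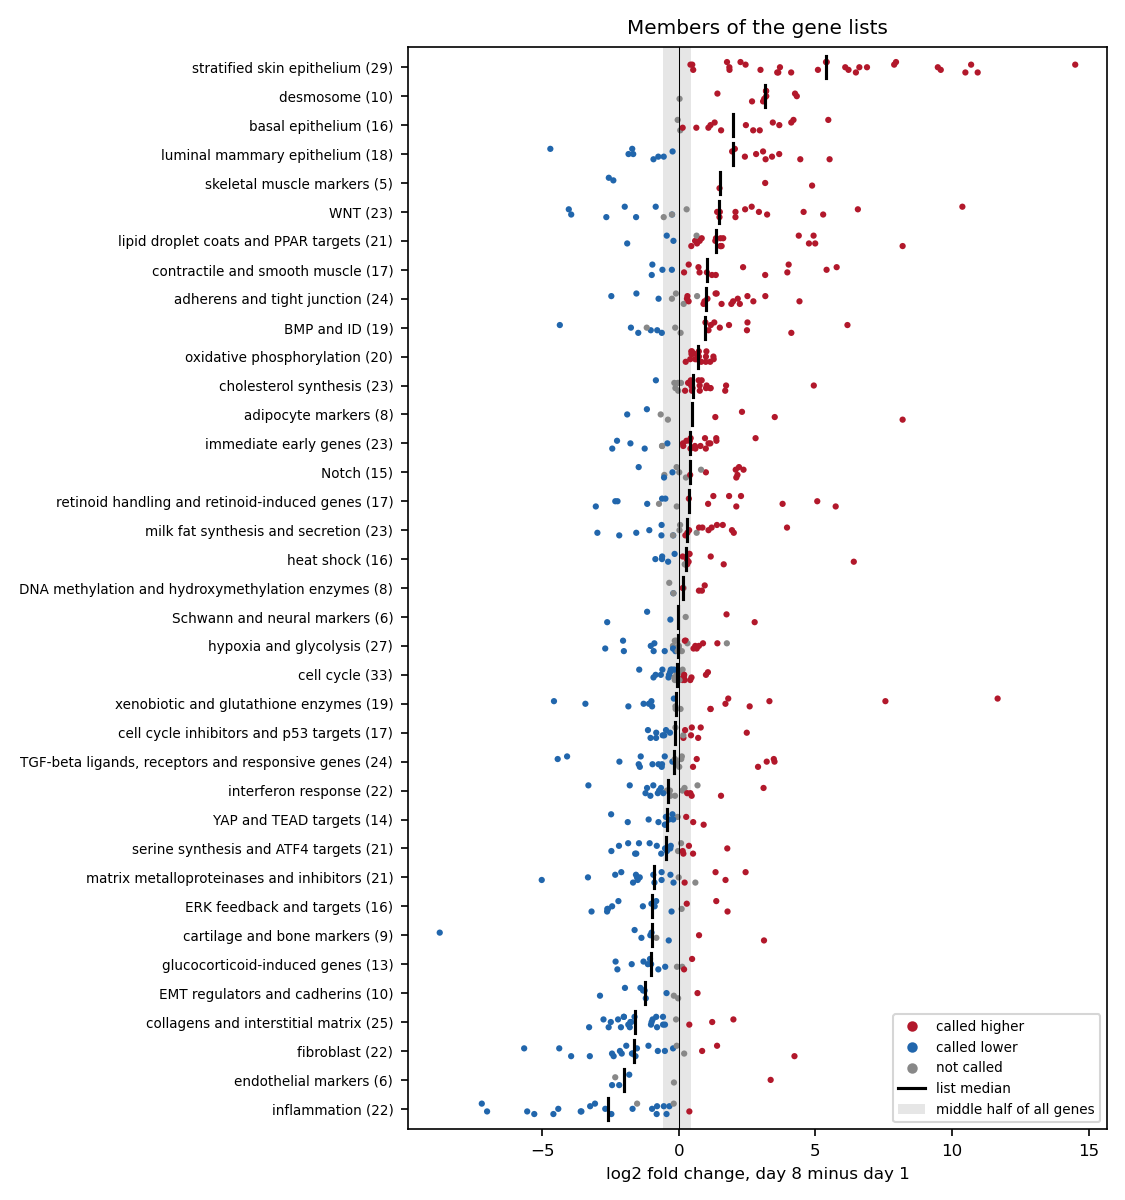
Log2 fold change of day 8 over day 1 for each tested member of the lists with at least 5 tested members, lists ordered by their median (black bar), members called higher in red, lower in blue and not called in grey; the grey band is the interquartile range of all genes tested, from -0.59 to 0.45. The stratified skin list lies farthest to the right with a median of 5.39, and inflammation farthest to the left with -2.58.

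Ligands and readouts of other pathways differed too. ID1, a target of bone morphogenetic protein (BMP) signalling, had 209 and 205 CPM at day 8, against 12 and 11.8 CPM at day 1 and 194 CPM at day 0 (log2 fold change 4.12 ± 0.10, edgeR adjusted p = 5.14e-21). ID2 had 60.4 and 53.4 CPM at day 8, against 9.95 and 10.2 CPM at day 1 and 37.8 CPM at day 0. ID3 had 267 and 257 CPM at day 8, against 91.2 and 93.6 CPM at day 1 and 280 CPM at day 0. For ID1 and ID3, day 8 was thus close to day 0, and day 1 was the low point of the 3 days. ID4 and the ligand BMP7 were also higher, at 1.84 and 2.52, while BMP4 was lower at -1.75. FST, follistatin, which binds activins and BMPs, had 14.7 and 15.6 CPM at day 8, against 311 and 310 CPM at day 1 and 178 CPM at day 0 (-4.35 ± 0.062). BMP6 had 18 counts at day 8 and 0 at day 1, at least 5.68-fold higher. Of 19 tested genes of the list 10 were higher, 6 lower and 3 not called (median 0.98).

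Of 23 tested WNT genes 13 were higher, 7 lower and 3 not called (median 1.49). WNT4, a ligand of mammary side branching, had 19.5 and 19.8 CPM at day 8 and 0.0926 and 0.310 CPM at day 1. The feedback targets AXIN2, NKD1 and RNF43 were higher, AXIN2 with 25.5 and 23.4 CPM at day 8 and 8.47 and 8.89 CPM at day 1, and the others at log2 fold changes of 5.29 and 2.43. Secreted inhibitors split, with SFRP1 at 198 and 200 CPM at day 8 and 31.9 and 30.7 CPM at day 1, and WIF1 at 1.57 and 2.45 CPM at day 8 and 32.8 and 33.5 CPM at day 1. WNT5A, a ligand of mesenchyme, was lower, with 240 and 240 CPM at day 8 and 948 and 942 CPM at day 1. WNT3 had a ratio of counts of 24.3 (95% interval 8.00 to 120).

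Notch genes were higher in 7 of 15 tested, lower in 3 and not called in 5 (median 0.42). NOTCH3, a receptor of smooth muscle and some luminal cells, had 438 and 458 CPM at day 8, against 105 and 106 CPM at day 1 and 78.4 CPM at day 0. JAG2, a ligand, had 101 and 102 CPM at day 8 and 19.8 and 19.6 CPM at day 1, and HES1, a target, had 28.9 and 25.6 CPM at day 8, against 6.06 and 6.19 CPM at day 1 and 22.2 CPM at day 0. HEY1, another target, was lower at -1.47, and JAG1 was not called at 0.02.

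Feedback genes of the ERK pathway were lower in 12 of 16 tested, higher in 3 and not called in 1 (median -0.96). ETV4, a transcription factor below FGF and ERK, had 5.60 and 5.73 CPM at day 8, against 35.9 and 33.6 CPM at day 1 and 156 CPM at day 0. SPRY4, SPRY2, DUSP4 and DUSP6, which dampen the pathway, had log2 fold changes of -3.19, -2.21, -2.59 and -1.0. CCND2, a cyclin, went the other way, with 825 and 837 CPM at day 8 and 243 and 239 CPM at day 1. Of 14 tested YAP targets and partners 10 were lower and 3 higher (median -0.42). AXL, a receptor kinase, had 64.1 and 58.6 CPM at day 8 and 342 and 339 CPM at day 1, and CYR61, a matricellular protein, had 185 and 181 CPM at day 8 and 670 and 668 CPM at day 1. Immediate early genes were higher in 16 of 23 tested and lower in 5 (median 0.43): FOSL2 had 787 and 776 CPM at day 8 and 298 and 303 CPM at day 1, while NR4A2 had 17.8 and 20.9 CPM at day 8 and 103 and 107 CPM at day 1. Time since the last medium renewal was not recorded in the labels, and its part in these values was not tested.

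Retinoid genes included CYP26B1, which degrades retinoic acid, with 166 and 165 CPM at day 8, against 11.7 and 12.1 CPM at day 1 and 36.5 CPM at day 0 (log2 fold change 3.80 ± 0.081). DHRS3, a retinal reductase, had 50.6 and 51.2 CPM at day 8 and 10.6 and 10.4 CPM at day 1, and RARB and RXRA, receptors, had log2 fold changes of 1.84 and 1.27. RBP4, a retinol carrier, was lower, with 22.0 and 21.5 CPM at day 8 and 100 and 105 CPM at day 1. The list had 9 higher, 6 lower and 2 not called of 17 tested (median 0.37). Of 13 tested glucocorticoid genes 9 were lower, 2 higher and 2 not called (median -1.01). NR3C1, the receptor, had 40.9 and 38.9 CPM at day 8, against 198 and 199 CPM at day 1 and 88.7 CPM at day 0, and FKBP5, a target, had 49.0 and 44.6 CPM at day 8 and 114 and 115 CPM at day 1.

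Xenobiotic genes were higher in 8 and lower in 8 of 19 tested (median -0.11) but a mean of 0.87, so that median and mean differ in sign. The CYP1A1 gene, the classic target of the aryl hydrocarbon receptor, had 13.6 and 13.1 CPM at day 8, against 311 and 322 CPM at day 1 and 9.63 CPM at day 0 (log2 fold change -4.57 ± 0.069). Day 1 was the high one of the 3 days. The CYP1B1 gene, another such target, went the other way, with 152 and 148 CPM at day 8, against 47.2 and 44.5 CPM at day 1 and 21.0 CPM at day 0. A gene annotated as GSTA1, a glutathione transferase, had 385 and 388 CPM at day 8 and 0.0926 and 0.133 CPM at day 1 (log2 fold change 11.67 ± 0.14), with 5 counts in all at day 1. HMOX1, haem oxygenase, was lower, with 5.13 and 5.77 CPM at day 8 and 56.8 and 60.0 CPM at day 1, and TXNRD1 and SRXN1, which act against oxidants, had log2 fold changes of -1.0 and -0.98. GCLC was lower at -0.18, GCLM was not called at -0.11, and NQO1 was higher at 1.163.

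Genes of lipid handling were mostly higher. Of 21 tested genes of lipid droplets and PPAR targets 17 were higher, 3 lower and 1 not called (median 1.36). FABP5, the fatty acid binding protein of epidermis, had 1018 and 1032 CPM at day 8, against 38 and 37.4 CPM at day 1 and 86.1 CPM at day 0 (log2 fold change 4.76 ± 0.064). A gene annotated as FABP4, that of adipocytes and other cells, had 263 and 270 CPM at day 8 and 0.880 and 0.929 CPM at day 1 (8.19 ± 0.13). PDK4, a brake on glucose oxidation, had 173 and 159 CPM at day 8, against 6.11 and 4.34 CPM at day 1 and 0.303 CPM at day 0. Genes of fatty acid oxidation rose by less: CPT1A, HADHA, CPT2 and ACADVL had log2 fold changes of 0.60, 0.77, 1.53 and 1.53. CIDEC, CIDEA and ANGPTL4 were the lower 3, at -1.89, -0.44 and -0.19. The call of CIDEA (edgeR adjusted p = 0.0371) was lost with RLE scaling (edgeR adjusted p = 0.06) and with DESeq2 (adjusted p = 0.119). It was also lost without day 1 replicate 1, day 1 replicate 2 or day 8 replicate 1. With single libraries left out, the log2 fold change of CIDEA ran from -0.57 to -0.32. Without day 1 replicate 2 or day 8 replicate 1 the count of lower genes of this list was 1 instead of 3.

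Beside FABP4, other fat cell markers moved unevenly. Of 8 tested adipocyte markers, FABP4 included, 4 were higher, 2 lower and 2 not called. The list summed to 318 and 327 CPM at day 8, against 10.3 and 11.8 CPM at day 1. Most of the day 8 sum was FABP4, with 263 and 270 CPM, followed by CEBPA. Without day 1 replicate 1, day 1 replicate 2 or day 8 replicate 2 only 2 were higher, and without day 1 replicate 2 1 was lower. CEBPA, a transcription factor of fat, liver and skin, had 51.8 and 53.3 CPM at day 8 and 4.91 and 4.29 CPM at day 1. ADIPOQ, adiponectin, had 25 counts over the day 8 pair and 33 over the day 1 pair and was not called. The part of such cells in the lipid values was not tested.

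Genes of milk fat synthesis did not share 1 direction, with 12 of 23 higher, 7 lower and 4 not called and a median of 0.32. FASN, fatty acid synthase, had 258 and 255 CPM at day 8, against 123 and 118 CPM at day 1 and 283 CPM at day 0, so that day 8 was near day 0. DGAT2, which makes triglyceride, had 6.55 and 6.33 CPM at day 8 and 0.602 and 0.221 CPM at day 1, and SCD and ACSS2 were higher at 1.40 and 1.61. The desaturase FADS2 had 16.4 and 17.5 CPM at day 8, against 130 and 137 CPM at day 1 and 182 CPM at day 0, and FADS1 had a log2 fold change of -2.18. MFGE8, a milk fat globule protein, was lower at -1.08, and BTN1A1, butyrophilin of the globule, had 0 counts.

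Cholesterol synthesis was higher in 17 of 23 tested, lower in 1 and not called in 5 (median 0.50). TM7SF2, a sterol reductase, had 193 and 199 CPM at day 8, against 5.79 and 6.90 CPM at day 1 and 15.4 CPM at day 0 (log2 fold change 4.94 ± 0.079). HMGCS1, which opens the pathway, had 182 and 181 CPM at day 8 and 81.3 and 80.4 CPM at day 1, and SQLE had a log2 fold change of 0.73. SREBF2 and INSIG1, regulators of the pathway, were not called.

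Oxidative phosphorylation genes were higher in 20 of 20 tested, with log2 fold changes of 0.25 to 1.28 and a median of 0.71, while 31.8% of all genes were higher. The COX7B gene, a subunit of cytochrome oxidase, had 117 and 122 CPM at day 8, against 48.8 and 49.9 CPM at day 1 and 92.7 CPM at day 0. NDUFA4 had 152 and 147 CPM at day 8, against 66.8 and 67.9 CPM at day 1 and 128 CPM at day 0. ATP5A1, of the ATP synthase, had 1011 and 1032 CPM at day 8, against 582 and 573 CPM at day 1 and 631 CPM at day 0. In these 3 the day 8 pair was above the day 1 pair, and day 0 lay between them. Ribosomal protein genes, whose share of the counts is given above, moved in the same direction, and the part of that share in these values was not tested.

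Glycolytic and hypoxia genes had no common direction, with 8 of 27 higher, 10 lower and 9 not called and a median of -0.04. VEGFA, the endothelial growth factor, had 37.2 and 39.4 CPM at day 8, against 247 and 248 CPM at day 1 and 411 CPM at day 0. PKM, pyruvate kinase, had 1300 and 1269 CPM at day 8 and 2619 and 2604 CPM at day 1, whereas SLC2A1, the glucose transporter GLUT1, had 2021 and 1955 CPM at day 8 and 757 and 737 CPM at day 1. Serine synthesis and ATF4 targets were lower in 14 of 21 tested, higher in 5 and not called in 2 (median -0.47). SLC7A11, the cystine transporter, had 18.7 and 20.2 CPM at day 8, against 115 and 101 CPM at day 1 and 1.58 CPM at day 0, while SLC7A5, of the leucine transporter, had 1246 and 1251 CPM at day 8 and 369 and 360 CPM at day 1.

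Cell cycle genes were near balance, with 10 of 33 higher, 11 lower and 12 not called and a median of -0.06. Without day 1 replicate 1 or day 8 replicate 1, 6 were higher. MKI67, the proliferation antigen, had 487 and 485 CPM at day 8, against 437 and 420 CPM at day 1 and 325 CPM at day 0 (log2 fold change 0.18 ± 0.065, edgeR adjusted p = 0.0156). Its call was lost without day 1 replicate 2, day 8 replicate 1 or day 8 replicate 2 (adjusted p 0.123, 0.0673 and 0.0602), and over 22 alternatives ran from 4.53e-11 to 0.123. TOP2A, a topoisomerase of dividing cells, was lower, with 189 and 208 CPM at day 8 and 377 and 377 CPM at day 1, so the proliferation genes named here differ in sign. CCND1, a cyclin of the entry into the cycle, had 294 and 277 CPM at day 8, against 142 and 144 CPM at day 1 and 433 CPM at day 0. CDKN1A, the inhibitor p21, had 228 and 224 CPM at day 8 and 194 and 190 CPM at day 1 (log2 fold change 0.23 ± 0.048), with its highest mean, 491 CPM, at day 3. Its list of inhibitors and p53 targets had 7 higher, 8 lower and 2 not called of 17 (median -0.12).

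Of the small heat shock proteins, HSPB8 had 123 and 124 CPM at day 8, against 1.30 and 1.59 CPM at day 1 and 1.19 CPM at day 0 (log2 fold change 6.41 ± 0.13), and HSPB1 had 474 and 485 CPM at day 8 and 155 and 151 CPM at day 1. CRYAB, another of them, was lower, with 10.5 and 8.91 CPM at day 8 and 11.8 and 13.5 CPM at day 1 (log2 fold change -0.39). The chaperones of the endoplasmic reticulum HSP90B1 and HSPA5 were lower at -0.86 and -0.61. The heat shock list had 10 higher, 5 lower and 1 not called of 16 (median 0.27), and 3 lower without day 1 replicate 2. Of 8 tested genes of DNA methylation and its removal 4 were higher, 1 lower and 3 not called (median 0.16). DNMT3A and TET3, a methyltransferase and a demethylating enzyme, had 0.74 and 0.85. DNMT1, the maintenance enzyme, was called lower at -0.20. The count of lower genes became 2 when day 0 replicate 1, or either replicate of day 4 or of day 6, was left out, and 3 with no filter on low counts or with the 4 libraries of days 8 and 1 alone.

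Markers of other cell types gave the following. Of 9 tested cartilage and bone markers 6 were lower, 2 higher and 1 not called (median -0.996) and a sum of 83.2 and 81.8 CPM at day 8, against 98.9 and 101 CPM at day 1. SOX9, a factor of cartilage and of many epithelia, had a log2 fold change of -0.996, ACAN, aggrecan, 3.12, and IBSP, a bone sialoprotein, 0 counts at day 8 and 108 at day 1, at least 38.1-fold lower. Endothelial markers had 3 lower, 1 higher and 2 not called of 6, and summed to 18.5 and 20.7 CPM at day 8, against 38.2 and 37.7 CPM at day 1. Schwann and neural markers had 2 higher, 3 lower and 1 not called of 6 and summed to 134 and 136 CPM at day 8, against 89.6 and 85.8 CPM at day 1. The neural tubulin gene TUBB3 had 94.5 and 95.6 CPM at day 8 and 14.5 and 13.2 CPM at day 1, and without day 1 replicate 2 only 1 of the list was higher. MAP2, called at -0.31, lost its call with DESeq2 (log2 fold change -0.26, adjusted p = 0.0572). It also lost its call without day 1 replicate 1 (log2 fold change -0.29) or day 8 replicate 2 (-0.27). Over 22 alternatives its log2 fold change ran from -0.34 to -0.26.

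Melanocyte markers had 1 higher and 1 lower of 2 tested and summed to 15.7 and 16.1 CPM at day 8, against 13.1 and 12.6 CPM at day 1, and the lower one was not called without any of the 4 libraries of these days. Skeletal muscle markers had 3 higher and 2 lower of 5 and summed to 19.6 and 21.2 CPM at day 8, against 1.90 and 2.04 CPM at day 1, of which ACTC1, cardiac actin, gave 17.1 and 19.2 CPM at day 8 and 0.417 and 0.796 CPM at day 1. The lower count was 0 without day 1 replicate 1 or day 8 replicate 2 and 1 without day 8 replicate 1. TYR, DCT and MLANA of melanocytes and MYOD1, MYOG and MYF5 of skeletal muscle had 0 counts in all 14 libraries, and CDH5 of endothelium had at most 1 in any. What part such cells had in the results above was not tested.

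When within the induction the difference arose was read from the days between, for genes called and changed at least 2-fold, on log2(CPM + 2). Of the change between days 1 and 8, the median gene that was higher had made 50.4% by day 4 (interquartile range 22.5 to 79.8%), and the median gene that was lower had made 56.8% (28.3 to 82.7%). For 985 higher genes (50.6%) and 1191 lower genes (57.1%), at least 50% of the change was present at day 4. A steady course was uncommon: 357 (18.3%) of the higher genes rose and 241 (11.6%) of the lower genes fell at every sampled step. Day means were used with no allowance for the spread between libraries, so any small reversal excluded a gene. At day 4, 133 (6.83%) of the higher and 196 (9.4%) of the lower genes stood on the opposite side of day 1, and 279 (14.3%) and 230 (11%) stood beyond their day 8 level. Means of days 1 and 8 enter both these shares and the choice of genes.

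**Figure D5:**
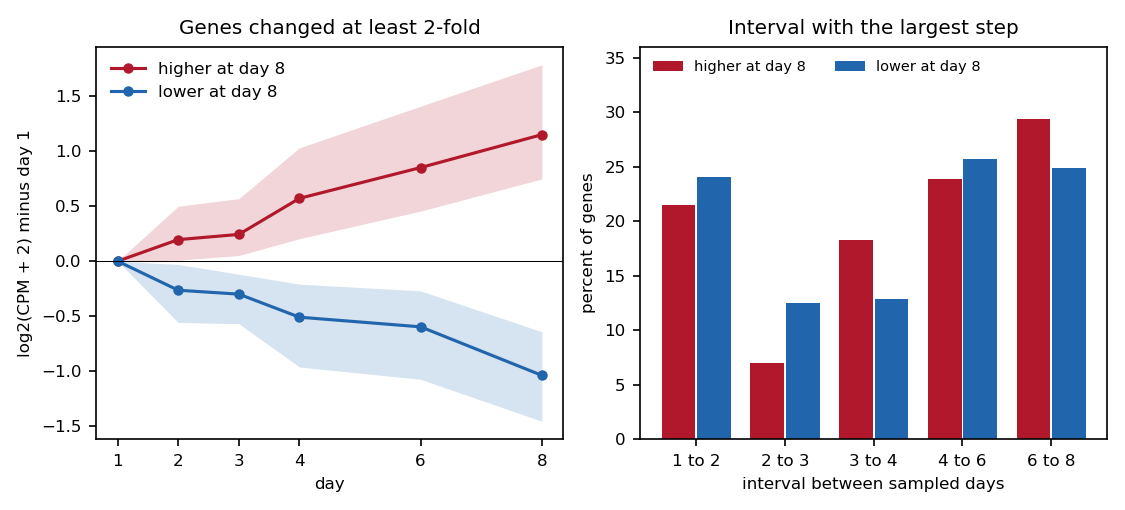
Left, median of log2(CPM + 2) minus that of day 1, by day, for the 1948 genes at least 2-fold higher and the 2084 at least 2-fold lower at day 8 (band, interquartile range); right, percent of those genes by the interval that held their largest step. The higher genes reach a median of 0.57 at day 4 and 1.15 at day 8, and the lower genes -0.51 and -1.04.

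Steps were largest between days 6 and 8 for 572 (29.4%) of the higher genes, between days 4 and 6 for 465 (23.9%), and between days 1 and 2 for 419 (21.5%). Lower genes had theirs between days 4 and 6 in 535 (25.7%), days 6 and 8 in 519 (24.9%) and days 1 and 2 in 502 (24.1%). Intervals after day 4 are 2 days long and those before it 1 day, so the later ones hold more time. KRT10 had a mean of 8.11 CPM at day 4 and 30.4 CPM at day 6, IVL had 8.76 and 85.2 CPM, and AQP3 had 11.6 and 188 CPM. KRT15 had 597 CPM at day 4 and 1444 CPM at day 6, and TGFB3 had 202 CPM at day 4 and 264 CPM at day 6, above its day 8 level. CXCL8 had fallen to 51.9 CPM at day 4 and 7.59 CPM at day 6. Of the 15712 genes, 3315 (21.1%) were not called between days 8 and 1 but differed among days 1 to 8 by the edgeR F test, and ACTA2, KRT8 and CDKN1A, all called between the ends, had higher levels at day 4 than at either.

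Several of the values above are given with day 0, and the 3 comparisons of days 8, 1 and 0 share libraries, so they are set side by side and not as independent results. For KRT5 the log2 fold change was 4.12 for day 8 over day 1, 2.74 for day 8 over day 0 and -1.38 for day 1 over day 0. ID1 had 4.12 for day 8 over day 1, 0.09 for day 8 over day 0 (edgeR adjusted p = 0.287) and -4.03 for day 1 over day 0. PDGFRA had -3.94, -2.36 and 1.58 in the same order, THBS1 -1.74, 0.28 and 2.02, and CYP1A1 -4.57, 0.47 and 5.04. TP63 had 2.96, 2.85 and -0.11, the last not called (edgeR adjusted p = 0.106), and KRT8 had -1.67, -3.49 and -1.82. Day 1 was therefore not a copy of day 0 for most of these genes, and the size of a change up to day 8 depends on which of the 2 days it is counted from.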

How the data were processed

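RNA was depleted of ribosomal RNA (Ribo-Zero Gold) and TruSeq libraries were made from it, per the labels' protocols. The authors deposited 1 estimated count per gene and library, and 7 columns of day means, not used here. The submitters' processing notes name HTSeq, FastQC 0.10.1 and DESeq2 1.16.1; aligner, build and strand setting are not stated there, so no coordinates are printed, and overlapping, antisense or near-identical genes cannot be told apart. Of the values, 90.0% were exactly whole (83.1% of those above 0), and the step that gave fractions is not known; all were rounded. The table held 30277 genes, with symbols for 25219 from the table and 3687 from RefSeq (ARS1.2). 1 line without values was left out.

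Genes were tested with edgeR 4.0.16 (R 4.3.3, limma 3.58.1): TMM scaling, filterByExpr, a group per day over 14 libraries (7 residual degrees of freedom, biological coefficient of variation 0.0455), 2-sided quasi-likelihood F tests and Benjamini-Hochberg adjustment over 15712 genes. The fit pools the spread of all days. The SE was derived from each fold change and its F value. Bounds use a floor of 3 counts over both libraries of a day. Bounds and ratios of counts use library totals without TMM scaling. Intervals are exact and cover counting error only. The test was checked on simulated data, where 92.4% of 66 genes changed 1 log2 unit between days 8 and 1 were recovered. There 15007 tested genes were unchanged and the other days shared the same means. It therefore cannot show how scaling and test behave where 66.8% of genes are called.

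The comparison, the lists (40, with 773 memberships, of which 703 matched by symbol, 36 by the table's description and 34 not) and the naming rule were chosen with earlier results of these data known. The rule names the 12 largest rises and falls at 10 CPM or more with separate libraries, the 6 largest in CPM, up to 4 called genes per list at 5 CPM or more, a set of standard markers and the 5 most counted uncalled genes; further list members are given by value. The spread within the day 8 and day 1 pairs exceeded sampling noise (chi-square per degree of freedom 2.18 and 1.80), so no library was taken as a copy of another. Alternatives covered scaling, filters, libraries in the fit, a replicate block, a test against a 2-fold change, DESeq2 1.42.0 and each library left out. Results of some genes that the rule names are not reported here.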

Additional observations from a re-analysis of the deposited data

How the results depend on the processing

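No gene called in the comparison was called in the opposite direction under any of the alternatives run. Calls numbered 4479 to 5372 higher and 4933 to 5675 lower with a library left out. RLE scaling gave 5381 and 5141, and DESeq2 gave 4957 and 4724. The counts of at least 2-fold stayed within 1.5 times, except that a test against a 2-fold change gave 1336 lower genes in place of 2084 (and 1457 higher in place of 1948). The median percent of the change present at day 4 was 53.7 for higher and 53.5 for lower genes with a pseudocount of 0.5, and 48.1 for higher genes with RLE scaling. With the replicate number as a block, 4943 genes were higher and 5422 lower. The deviations of same-numbered libraries of days 8 and 1 correlated at 0.0319, and those of all pairs of days at -0.205 to 0.108. Little deviation was thus shared by number between days 8 and 1, which cannot settle whether the numbers mark paired cultures. The block moved no count by over 1.5 times.

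Signs turned for uncalled genes near 0. FTL, at -0.0063, came to 0.0379 with RLE scaling and with DESeq2, 0.0161 with upper quartile scaling, 0.0343 with the 4 libraries of the comparison, 0.0156 with 12 libraries, and -0.0324 to 0.0189 with single libraries left out. SNAI2, at -0.0233, came to 0.0209 with RLE scaling and with DESeq2, 0.0175 with 4 libraries, and ran from -0.0466 to 0.0002 with single libraries left out. ENO1, at 0.0048, ran from -0.0082 to 0.0283 with single libraries left out. RLE scaling moved the median of all genes by 0.0442. ACTN4 was called higher with RLE scaling (adjusted p = 0.0154), DESeq2 (0.00922), upper quartile scaling (0.046), 4 libraries (7.76e-07), 12 libraries (0.0159) and without day 0 replicate 2 (0.0147). Small lists moved as well: a stricter filter left 2 adipocyte, 0 endothelial and 1 neural marker higher and 0 skeletal muscle markers lower; no filter made 1 milk protein gene higher; DESeq2 left 1 lipid gene, 0 melanocyte and 1 skeletal muscle marker lower and 2 adipocyte markers higher; and skeletal muscle had 0 lower with 4 libraries and 1 with 12. The causes were not tested. With 2 libraries a day, changes of genes under about 5 CPM, ESR1 among them, rest on few counts.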

Other observations

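Families that no list above covers were read by symbol, after other values of these data had been seen. Genes for cytosolic ribosomal proteins were higher at day 8 than at day 1 in 76 of 78 tested, with a median log2 fold change of 0.69, and those for mitochondrial ribosomal proteins in 49 of 77, with 6 lower and a median of 0.29. Subunits of NADH dehydrogenase were higher in 35 of 37. Proteasome subunits had 10 higher, 15 lower and 14 not called of 39, with a median of -0.10. Of 12 tested S100 genes 7 were higher and 2 lower. S100A8, a calcium-binding alarmin of myeloid cells and activated epidermis, had 483 and 516 CPM at day 8, against 20.5 and 23.0 CPM at day 1 and 10.2 CPM at day 0 (log2 fold change 4.52), and its partner S100A9 had 475 and 461 CPM at day 8 and 35.6 and 36.4 CPM at day 1. Aquaporins had 3 of 4 tested higher, among them AQP1, with 305 and 304 CPM at day 8 and 11.9 and 13.4 CPM at day 1.

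Integrins were lower in 13 of 21 tested and higher in 7, with a median of -0.77. ITGB8, a chain that binds latent TGF-beta, had 48.6 and 49.3 CPM at day 8, against 423 and 416 CPM at day 1 and 24.6 CPM at day 0. ITGA8, of smooth muscle and mesenchyme, had 138 and 139 CPM at day 8, against 16.7 and 15.9 CPM at day 1 and 1.56 CPM at day 0, and ITGA7, a laminin-binding chain of muscle, had 23.2 and 22.9 CPM at day 8 and 0.370 and 0.398 CPM at day 1. FGFR2 had 79.6 and 75.8 CPM at day 8 and 11.6 and 11.3 CPM at day 1, and FGFR1 had 65.3 and 68.1 CPM at day 8 and 217 and 212 CPM at day 1, so that these receptors moved in opposite directions. Ephrins and their receptors were higher in 12 of 19 tested and lower in 4, with a median of 1.03, and semaphorins lower in 11 of 20 and higher in 5, with a median of -0.70. Cathepsins were lower in 7 of 12 tested, among them CTSK, a collagen-degrading protease, with 94.5 and 90.9 CPM at day 8, against 514 and 513 CPM at day 1 and 1242 CPM at day 0.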
